A study of Mus musculus with 3 samples.

Results

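The genes described here are Apoe, Trem2, Tyrobp, Abca1, Abcg1, Apoc1, Soat1, Plin2, Fabp5 and Msr1, 10 of the 50262 genes in the deposited table. They were chosen by name, for their parts in carrying, sensing, exporting and storing lipid, with earlier results of these data known. UMI counts were deposited for cells of mouse gliomas that had been sorted by CD45, the surface protein of leukocytes, and encapsulated on the inDrop platform. Each mRNA molecule is there counted once, from a tag near its 3′ end. Early, medium and late tumors (the last labelled large) gave 1 tumor sample each, with a CD45+ and a CD45- sort of each, and every sort was split over 4 technical libraries. All tumors were of 1 genotype. The mice carried a conditional transgene of wild-type human EGFR, germline loss of Cdkn2a (Cdkn2a-/-) and a conditional luciferase reporter, on a mixed background of Balb/cJ, SJL, FVBN/J, 129S4 and C57Bl/6J. A Cre lentivirus injected into the brain of adult mice started the tumors, so that only infected cells and their descendants carry the recombined alleles, whereas Cdkn2a is missing from every cell of the host, immune cells included. Early samples of the study were each pooled from 2 mice. No untreated or tumor-free brain was analysed here.

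APOE is the main lipid carrier of the brain, made by astrocytes and, on demand, by microglia and macrophages. TREM2 is a myeloid surface receptor that binds lipids and lipoproteins and signals through its adaptor TYROBP. ABCA1 and ABCG1 export cholesterol onto apolipoproteins, and APOC1 is a small apolipoprotein that exchanges between particles. SOAT1 esterifies cholesterol for storage, PLIN2 coats lipid droplets, FABP5 carries fatty acids in the cytosol, and MSR1 is a scavenger receptor that takes up modified lipoproteins. Macrophages that clear lipid-rich debris, such as myelin, are known to use much of this set together.

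After filtering, 17755 of 20811 cells remained, and each tumor sample and sort summed to between 5366987 and 10814467 UMIs. Levels are in CPM, a gene's UMIs per 1000000 UMIs of the summed cells. They are not compared between genes. Ptprc, the gene of CD45, was at 238 ± 10.7 CPM in the CD45+ and 10.3 ± 6.23 in the CD45- sorts (SD, n = 3). Cells were placed in classes by 32 clusters and fixed markers. Names end in "-like", as they rest on RNA alone. P2ry12 and Tmem119, microglial markers, were at 2147 to 3476 and 949 to 1461 CPM over the 3 samples in microglia-like cells, against 113 to 208 and 85.3 to 213 in macrophage or monocyte-like cells. Aqp4, an astrocyte marker, was at 797 to 1349 in astrocyte-like cells and at most 8.75 in the other classes that were compared. Tumor cells, called EGFR-carrying, were taken as the CD45- cells of clusters with at least 20 such cells, of which at least 10% held a UMI of the human EGFR transgene. This took 3 clusters, with shares of 78.7 to 89.1%, and EGFR UMIs were also seen in clusters that were not taken. In the medium and late samples 305 of 358 and 918 of 1073 of these cells held an EGFR UMI, but only 4 of 44 in the early sample did, so that the early EGFR-carrying value is that of a cluster more than of cells shown to carry the transgene. Libraries of 1 tumor sample and sort shared cell barcodes more often than other libraries did, at 61.2 against 7.48 per 1000000 pairs of cells. Within a sample and sort 1307 pairs of cells shared a barcode, and 80.8% of them were in 1 cluster. Of all pairs of cells from different libraries there, 15.1% were in 1 cluster. Elsewhere 950 pairs shared a barcode, 4.32% of them in 1 cluster. Keeping 1 cell per barcode left 16631 cells. Where that ended a call, the value is given beside it.

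Apoe (ENSMUSG00000002985) and Apoc1 (ENSMUSG00000040564) are neighbours on the minus strand of chromosome 7, at 19696109 to 19699188 and 19689481 to 19692660 of GRCm38, 3448 bases apart. With Apoc4 and Apoc2, on the same strand, they fill 27610 bases. Tyrobp (ENSMUSG00000030579, plus strand, 30413760 to 30417585) is on chromosome 7 as well, 126 bases from Hcst, the gene of another small adaptor. Trem2 (ENSMUSG00000023992, plus strand, 48346401 to 48354147) and Abcg1 (ENSMUSG00000024030, plus strand, 31057675 to 31117988) are on chromosome 17. Abca1 (ENSMUSG00000015243, minus strand, 53030787 to 53159895) and Plin2 (ENSMUSG00000028494, minus strand, 86648386 to 86670060) are on chromosome 4. Soat1 (ENSMUSG00000026600, minus strand) spans 156424525 to 156474331 on chromosome 1, Fabp5 (ENSMUSG00000027533, plus strand) 10012548 to 10016607 on chromosome 3, and Msr1 (ENSMUSG00000025044, minus strand) 39581685 to 39642673 on chromosome 8. All are protein-coding. The annotation puts Gm25447 on the same strand within Abcg1 and Gm37648 on the opposite strand of Soat1, and the counting could not be checked for reads they may share.

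Promoters were read for Trem2, Apoe and Abca1, as examples of a gene read almost only in leukocyte classes, one read in myeloid and astrocyte-like cells, and one read in both sorts. The 250 bases before 1 RefSeq start of each gene are printed 5′ to 3′ on the gene's strand (GRCm38.p6), at chr17:48346151-48346400 for Trem2 (plus strand), chr7:19699189-19699438 for Apoe (minus strand) and chr4:53159896-53160145 for Abca1 (minus strand). Apoe has 3 listed starts, and only the start farthest upstream was read. Capitals mark each match, on either strand, to GAGGAA (the core bound by the myeloid factor PU.1), TGANTCA (AP-1), AGGTCA (a nuclear receptor half-site) or CACGTG (an E-box).
Trem2: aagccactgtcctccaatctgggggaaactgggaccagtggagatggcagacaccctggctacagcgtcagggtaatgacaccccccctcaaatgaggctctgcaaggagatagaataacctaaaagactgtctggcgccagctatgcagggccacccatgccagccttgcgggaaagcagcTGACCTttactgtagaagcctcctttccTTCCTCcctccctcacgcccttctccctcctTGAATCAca
Apoe: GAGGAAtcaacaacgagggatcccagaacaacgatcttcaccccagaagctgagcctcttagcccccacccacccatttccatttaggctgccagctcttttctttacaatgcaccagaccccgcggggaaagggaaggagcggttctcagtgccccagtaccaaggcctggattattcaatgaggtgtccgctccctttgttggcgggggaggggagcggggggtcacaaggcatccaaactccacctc
Abca1: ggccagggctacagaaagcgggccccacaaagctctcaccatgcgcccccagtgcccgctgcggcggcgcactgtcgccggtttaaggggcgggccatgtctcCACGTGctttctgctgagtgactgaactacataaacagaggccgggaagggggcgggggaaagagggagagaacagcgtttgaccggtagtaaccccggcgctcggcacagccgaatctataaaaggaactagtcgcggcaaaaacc
Trem2 held 3 matches, of which none overlapped another: AGGTCA on the reverse strand from base -68, GAGGAA on the reverse strand from -40 and TGANTCA from -9, counted from the start. Apoe held GAGGAA at -250 and Abca1 held CACGTG at -147, and neither held another of these motifs. Of 32851 promoters of the same length, 23.3% held GAGGAA, 6.75% TGANTCA, 14% AGGTCA and 6.02% CACGTG. RefSeq promoters were at hand for 5 of the 10 genes, the others being Soat1, with no match, and Plin2, with 1 AGGTCA match on the reverse strand from -218.

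The sorts were compared first, to ask whether these genes belong to the leukocyte side of the tumor. Of the 10 genes, 8 were higher in CD45+ than in CD45- cells and 0 lower, where 46.2% of all 18428 genes tested were called, 20.4% higher and 25.7% lower. The 2 that passed in neither direction were Abcg1 and Fabp5. The edgeR quasi-likelihood test paired the sorts of each tumor sample, and p-values were adjusted by Benjamini-Hochberg over all genes. The 3 tumor samples also differ in stage, so that their spread holds stage and sample together.

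Apoe, the lipid carrier, was at 3610 early, 10075 medium and 19101 CPM late in the CD45+ sorts, and at 1354, 1366 and 566 in the CD45- sorts. Every CD45+ value lay above every CD45- value, and the distance was greatest in the late sample. The log2 fold change was 3.47 (SE 0.76, adjusted p = 0.0095). Without the medium sample it was 3.57 with an adjusted p of 0.054. Apoc1, the small apolipoprotein beside it, was at 9.06, 42.1 and 46.6 in CD45+ and at 3.59, 6.09 and 0.949 in CD45- cells. These groups did not overlap either. Its log2 fold change was 3.47 (SE 0.73, adjusted p = 0.0083), and without the medium sample 3.63 (adjusted p = 0.079). When every gene with at least 1 count was tested, the adjusted p of Apoc1 was 0.14.

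Trem2, the receptor, was at 859 early, 432 medium and 695 CPM late in the CD45+ sorts and at 58.2, 32.1 and 6.45 in the CD45- sorts. Tyrobp, its adaptor, was at 1257, 1359 and 1284 and at 86.1, 61.1 and 7.78. For both genes the groups stood apart, and the late CD45- sort was lowest. Log2 fold changes were 5.06 (SE 0.68, adjusted p = 0.0012) and 5.49 (SE 0.77, adjusted p = 0.0014). The CD45- sorts still held cells of the microglia-like, macrophage or monocyte-like and border macrophage-like classes and of an unnamed cluster led by Cxcl9. Together these were 241 of 2723 cells (8.85%) early, 105 of 1603 (6.55%) medium and 32 of 2259 (1.42%) late. These cells gave 92.4, 95.3 and 92.6% of the Trem2 UMIs of the CD45- sorts, and 91.7, 97.0 and 80.5% of the Tyrobp UMIs. Of Apoe UMIs they gave 9.82, 19.1 and 2.15%. Trem2 and Tyrobp in the CD45- sort were thus mostly those of this set of cells, while Apoe there was mostly that of other cells.

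Msr1, the scavenger receptor, was at 9.89, 26.4 and 42.9 CPM in the CD45+ sorts, with 593 UMIs in all, against 3 UMIs in all CD45- cells. The ratio was 192 (95% counting interval 65.5 to 936). Plin2, the droplet coat, was at 42.0, 121 and 161 in CD45+ and 12.2, 16.4 and 19.3 in CD45- cells, with no overlap and a log2 fold change of 2.96 (SE 0.32, adjusted p = 4.0e-04). Abca1, the exporter, was at 216, 144 and 295 in CD45+ and 90.0, 96.2 and 73.4 in CD45- cells. The groups again stood apart, by less than for Plin2, and the log2 fold change was 1.65 (SE 0.30, adjusted p = 0.0033). Soat1, the esterifying enzyme, was at 46.8, 55.6 and 91.9 against 33.3, 40.4 and 50.1. It was higher in CD45+ cells in each of the 3 pairs, but the groups overlapped, and the log2 fold change was 0.98 (SE 0.20, adjusted p = 0.0053).

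Abcg1, the other exporter, did not pass. It was at 57.4, 71.6 and 110 CPM in the CD45+ and 57.5, 62.7 and 37.4 in the CD45- sorts, level in the early sample and higher in the other two. The log2 fold change was 0.94 (SE 0.33, adjusted p = 0.055). Abcg1 passed without the early sample (1.32, adjusted p = 0.037), under DESeq2 (0.99, adjusted p = 0.032) and with 1 cell per barcode (0.95, adjusted p = 0.044). Fabp5, the fatty acid carrier, went the other way, at 39.1, 178 and 287 in CD45+ and 437, 439 and 395 in CD45- cells. It was lower in CD45+ cells in each pair, with a gap that was widest in the early sample. The log2 fold change of -1.33 (SE 0.59) had an adjusted p of 0.11, and without the late sample -2.01 and 0.022. DESeq2 gave -1.28 with an adjusted p of 0.040.

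These sums mix cell types: more cells of a type and more mRNA per cell cannot be told apart in them. Within each of 9 run and stage combinations, Apoe, Trem2, Tyrobp, Abca1, Soat1 and Plin2 were higher in CD45+ cells in all 9, Abcg1 in 7 and Fabp5 in 1. Apoc1 was higher in all 8 and Msr1 in all 3 that had UMIs in both sorts. In the remaining combination, run 1 of the early sample, Apoc1 had 0 UMIs in 132 CD45+ and 6 in 628 CD45- cells. Without the TMM factors, which scale libraries so that most genes are level, the median log2 fold change of all genes moved from -0.04 to -0.40. Then 2589 genes were higher and 6564 lower, in place of 3768 and 4738, and the same 8 members stood higher while Fabp5 was called lower (-1.70, adjusted p = 0.049).

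**Figure D1:**
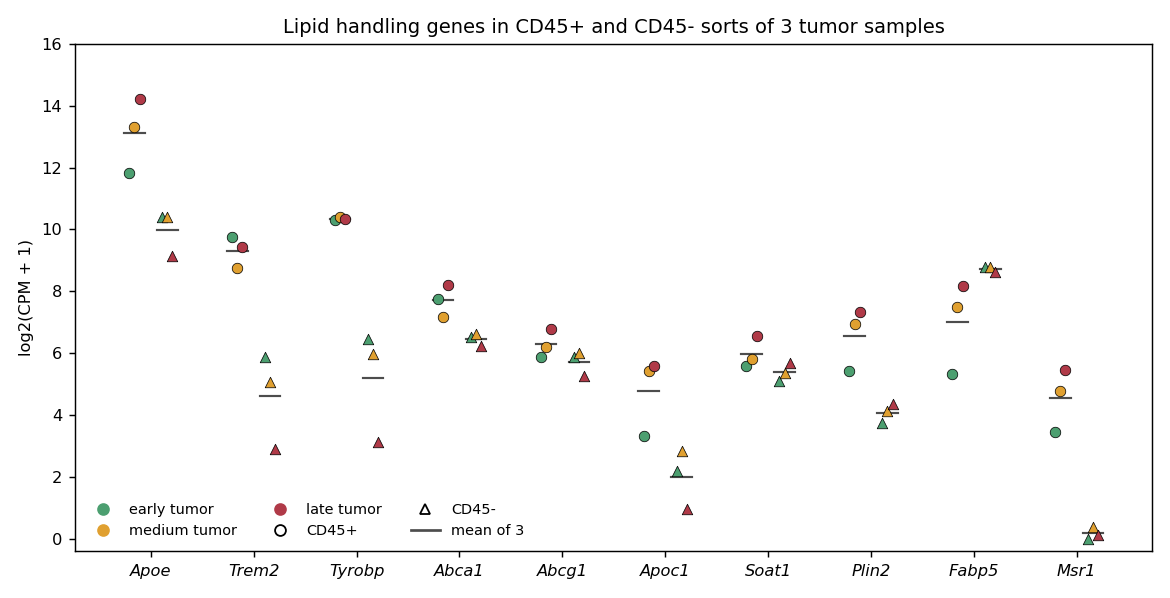
Levels of the 10 genes, as log2(CPM + 1), in the CD45+ (circles) and CD45- (triangles) sorts of the early, medium and late tumor samples (colours), with a line at the mean of the 3. Circles and triangles overlap for Soat1 and Abcg1, Fabp5 is the gene with its triangles on top, and Msr1 is near 0 in CD45- cells.

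The classes show where within each sort the genes were read. The 10 genes had been left out of the clustering. Levels over 17 classes are given as the mean of the tumor samples, and classes differ in depth and cell number. In the order of Apoe levels, an unnamed CD45+ cluster led by Cxcl9 and H2-Eb1 came first at 23643 ± 13440 CPM, then border or perivascular macrophage-like cells at 21135 ± 3817 and macrophage or monocyte-like cells at 20173 ± 17345 (SD, n = 3). Astrocyte-like cells had 7772 ± 353, an unnamed CD45+ cluster led by Mki67 and hemoglobin genes 6686 ± 6823 and microglia-like cells 4745 ± 1919. T cell-like cells came next at 3251 ± 2073 and overlapped microglia-like cells. Further down, among others, were oligodendrocyte-like cells at 1029 ± 77.9, EGFR-carrying cells at 682 ± 422 and neuron-like cells at 82.8 ± 45.2. Among all neighbours in that order, only macrophage or monocyte-like and astrocyte-like cells, and EGFR-carrying and neuron-like cells, did not overlap.

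Trem2 had another order, with microglia-like cells at 983 ± 57.9, the Cxcl9-led cluster at 874 ± 305 and the Mki67 and hemoglobin-led cluster at 671 ± 192. Macrophage or monocyte-like cells were at 461 ± 169 and border macrophage-like cells at 424 ± 86.0. T cell-like cells were at 207 ± 36.5, astrocyte-like cells at 14.2 ± 16.0 and EGFR-carrying cells at 0.151 ± 0.262. Tyrobp was highest in neutrophil-like cells, at 2001 ± 647, and lay between 1366 and 1870 on average in the Cxcl9-led, macrophage or monocyte-like, microglia-like and border macrophage-like cells. Neutrophil-like cells are thus rich in the adaptor and poor in this receptor, with Trem2 at 114 ± 58.8. Adaptors are shared among receptors, and TYROBP is known to serve several.

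The lipid genes divided between myeloid and neural classes. Msr1 was at 125, 153 and 114 in the early, medium and late border macrophage-like cells, 67.2 ± 26.2 in macrophage or monocyte-like cells and 5.13 ± 2.56 in microglia-like cells. Plin2 had the same 2 classes on top, at 243 ± 95.9 and 215 ± 76.7, with microglia-like cells at 56.6 ± 36.4. Apoc1 was at 99.3 ± 18.3 in macrophage or monocyte-like, 67.4 ± 25.1 in Cxcl9-led, 18.0 ± 6.40 in astrocyte-like and 16.2 ± 17.5 in microglia-like cells. Soat1 was instead highest on average in astrocyte-like cells, at 217 ± 73.3, above every value of macrophage or monocyte-like cells, the next class. Fibroblast-like cells reached 136, above the lowest astrocyte-like value of 132. Fabp5 was highest in oligodendrocyte-like (720 ± 81.8) and astrocyte-like cells (705 ± 224). Abca1 was at 355 ± 153 in astrocyte-like and between 220 and 252 on average in macrophage or monocyte-like, glioma or oligodendrocyte progenitor-like, microglia-like and border macrophage-like cells, which overlapped. Abcg1 was near 120 in glioma or oligodendrocyte progenitor-like (121 ± 16.3), Cxcl9-led (120 ± 84.4) and oligodendrocyte-like cells (119 ± 19.2), and 7.43 ± 12.9 in astrocyte-like cells, from 4 UMIs.

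**Figure D2:**
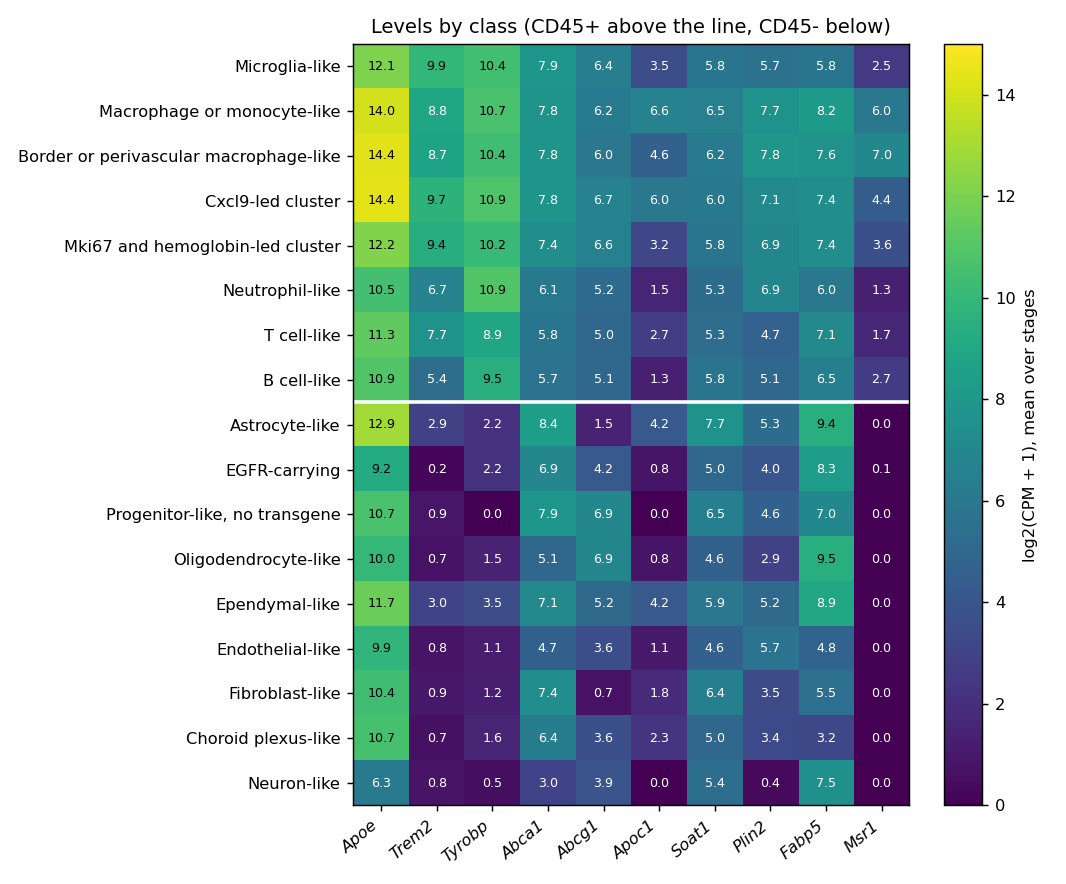
Mean of log2(CPM + 1) over the tumor samples with at least 20 cells, for the 10 genes (columns) in 17 cell classes (rows). The row of progenitor-like cells is the glioma or oligodendrocyte progenitor-like class, and the CD45+ classes lie above the white line. Trem2 and Tyrobp are dark below that line, Apoe is bright in astrocyte-like cells as well as in myeloid classes, and Soat1 and Fabp5 are brightest in rows of the CD45- sort.

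Microglia-like cells were next compared with astrocyte-like and EGFR-carrying cells in 1 edgeR fit of 15 sums, 5 classes in 3 tumor samples. Microglia-like cells numbered 3909, 846 and 977 in the early, medium and late sample, macrophage or monocyte-like cells 191, 493 and 646, astrocyte-like cells 83, 56 and 27 and EGFR-carrying cells 44, 358 and 1073. Against astrocyte-like cells, 3 of the 10 genes were higher and 2 lower in microglia-like cells, where 38.5% of 10680 genes were called, 18.3% higher and 20.2% lower. The 3 were Trem2, Tyrobp and Abcg1. Trem2 was at 1030, 918 and 1000 CPM in early, medium and late microglia-like cells and at 11.1, 31.5 and 0 in astrocyte-like cells, from 7 UMIs, with a log2 fold change of 5.92 (SE 0.49, adjusted p = 5.9e-11). Tyrobp was at 1331, 1674 and 1190, against 3 UMIs in all astrocyte-like cells, a ratio of 172 (95% counting interval 58.8 to 833). Abcg1 was at 64.5, 113 and 77.8 against 22.3, 0 and 0 (3.16, SE 0.83, adjusted p = 0.0040).

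The 2 lower genes were Soat1 and Fabp5. Soat1 was at 46.2, 56.1 and 66.2 CPM in microglia-like and 256, 132 and 262 in astrocyte-like cells, with no overlap and a log2 fold change of -1.70 (SE 0.33, adjusted p = 1.2e-04). Without the early sample it was -1.08 (adjusted p = 0.052) and with classes set per cell, by each cell's own markers, -0.82 (adjusted p = 0.094). Fabp5 was at 17, 154 and 65.2 against 452, 877 and 787 (-3.20, SE 0.45, adjusted p = 5.2e-06). Apoe was at 2565, 6183 and 5486 in microglia-like and 7765, 7422 and 8129 in astrocyte-like cells. The astrocyte-like values were the higher in each sample, and lay close together, yet the log2 fold change of -0.45 (SE 0.52) did not pass (adjusted p = 0.53). Abca1 (-0.14, SE 0.37), Plin2 (0.67, SE 0.51) and Apoc1 (-0.10, SE 0.95) did not pass either, with groups that overlapped. Per cell Plin2 was called higher in microglia-like cells (1.91, adjusted p = 0.0077). Msr1 had 42 UMIs in microglia-like cells and 0 in the much smaller astrocyte-like sum, which allows no fold.

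Against EGFR-carrying cells, 9 of the 10 genes were higher in microglia-like cells and 1 lower, where 43.8% of genes were called, 19.9% higher and 23.8% lower. EGFR-carrying cells had Apoe at 1147, 575 and 324 CPM, below every microglia-like value (3.18, SE 0.57, adjusted p = 2.0e-04). Trem2 was almost missing from them, with 3 UMIs among 1475 cells, and the ratio was 3036 (95% counting interval 1039 to 14726). Tyrobp was at 17.5, 1.30 and 1.36 (9.91, SE 0.54, adjusted p = 7.8e-15). Apoc1 (3.75, SE 0.72), Abcg1 (2.90, SE 0.50), Plin2 (2.02, SE 0.38) and Abca1 (1.44, SE 0.37) were higher in microglia-like cells in each sample with no overlap. Msr1 had 42 against 1 UMI, a ratio of 32.3 (5.49 to 1307). Soat1 passed with overlapping groups (0.96, SE 0.32, adjusted p = 0.015), but not without the medium (0.97, adjusted p = 0.11) or the late sample (1.14, adjusted p = 0.052). With the highest doublet scores removed it was 0.83 (adjusted p = 0.054). The lower gene was Fabp5, at 201, 445 and 361 in EGFR-carrying cells (-1.93, SE 0.43, adjusted p = 7.4e-04). It did not pass with classes set per cell (-1.0, adjusted p = 0.15) or without the block (-1.76, adjusted p = 0.081). Set per cell, only 3 early EGFR-carrying cells remained, under the 20 needed for a sum. Every per-cell contrast with EGFR-carrying cells thus lacks their early sum, as do those with cells that held an EGFR UMI alone. Without the early sample, with its 4 EGFR-positive cells, 9 members were again higher and 1 lower, where 2353 of 14009 genes were higher and 3101 lower. Without TMM factors, 1555 genes of this contrast were higher and 3811 lower in place of 2126 and 2547, and Soat1 did not pass (0.58, adjusted p = 0.11).

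Macrophage or monocyte-like cells were compared in the same way. Of this class 129 early, 382 medium and 75 late cells lay in a cluster that also had 3 dendritic cell markers. Against astrocyte-like cells 7 of the 10 genes were higher and 1 lower, where 41.2% of genes were called, 19.8% higher and 21.4% lower. Apoe was at 9513, 10819 and 40187 CPM in early, medium and late macrophage or monocyte-like cells, each above all 3 astrocyte-like values. The late value was far above the other two. The log2 fold change was 1.64 (SE 0.54, adjusted p = 0.022), without the late sample 0.84 (adjusted p = 0.12) and without TMM factors 1.23 (adjusted p = 0.12). Plin2 was at 156, 188 and 302 against 44.6, 25.2 and 47.7 (2.75, SE 0.48, adjusted p = 2.7e-05), and Apoc1 at 113, 78.5 and 106 against 11.1, 18.9 and 23.8 (3.15, SE 0.81, adjusted p = 0.0031). Plin2 stood clear of the astrocyte-like values in every sample, though these rest on 14 UMIs in all. Of the early Apoc1 value of 113 most came from the run 2 library, without which it was 24, level with the late astrocyte-like value. The astrocyte-like Apoc1 values rest on 6 UMIs in all. With classes set per cell Apoe (1.72, adjusted p = 0.051) and Apoc1 (2.58, adjusted p = 0.065) did not pass, nor with the highest doublet scores removed (0.99, adjusted p = 0.21, and 1.52, adjusted p = 0.25). Trem2 (4.85, SE 0.50) and Abcg1 (3.26, SE 0.84) passed as they had in microglia-like cells. Tyrobp had a ratio of 210 (71.8 to 1018), and Msr1, with 277 UMIs against 0, was at least 9.65-fold higher by a floor of 3 UMIs over the group.

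The lower gene was Soat1, at 83.8, 69.1 and 130 CPM against 256, 132 and 262 in astrocyte-like cells (-0.92, SE 0.33, adjusted p = 0.028). It did not pass without the early (-0.36, adjusted p = 0.56), the medium (-0.98, adjusted p = 0.11) or the late sample (-0.94, adjusted p = 0.082), nor without the block (-0.82, adjusted p = 0.071), per cell (-0.33, adjusted p = 0.56) or with every gene kept (-0.45, adjusted p = 0.57). Fabp5 (-0.86, SE 0.42) and Abca1 (-0.08, SE 0.38) did not pass. Fabp5 was called lower without TMM factors (-1.24, adjusted p = 0.024), in a fit of the 2 classes alone (-1.05, adjusted p = 0.0027) and with the highest doublet scores removed (-1.95, adjusted p = 0.028). Without TMM factors 1706 genes of this contrast were higher and 2829 lower, in place of 2117 and 2285. Against EGFR-carrying cells 9 of the 10 genes were higher and 0 lower, where 43.2% of genes were called, 19.9% higher and 23.3% lower. Log2 fold changes were 5.28 (SE 0.63) for Apoe, 7.0 (SE 0.73) for Apoc1, 4.11 (SE 0.40) for Plin2, 3.00 (SE 0.50) for Abcg1 and 1.74 (SE 0.32) for Soat1. Abca1 passed at 1.49 (SE 0.38, adjusted p = 0.0021) although it was higher in only 2 of 3 samples, and did not pass without the late sample (0.60, adjusted p = 0.21), with the 2 classes alone (1.47, adjusted p = 0.052), per cell (1.27, adjusted p = 0.12) or with the highest doublet scores removed (0.59, adjusted p = 0.42). Trem2 had a ratio of 1543 (527 to 7490) and Msr1 of 688 (123 to 27286). Fabp5 was at 185, 269 and 490 against 201, 445 and 361 and did not pass (0.42, SE 0.42, adjusted p = 0.46). Without TMM factors 1549 genes of this contrast were higher and 3981 lower, in place of 2130 and 2486.

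The 2 myeloid classes were then set against each other. Of the 10 genes, 5 were higher and 1 lower in macrophage or monocyte-like than in microglia-like cells, where 14.6% of genes were called, 8.06% higher and 6.56% lower. Msr1 was at 37.0, 81.0 and 83.7 CPM against 2.23, 7.09 and 6.06 (3.90, SE 0.40, adjusted p = 7.2e-08). Plin2 was at 156, 188 and 302 against 29.9, 98.0 and 41.9 (2.08, SE 0.33, adjusted p = 3.7e-05). Fabp5 was at 185, 269 and 490 against 17, 154 and 65.2 (2.35, SE 0.43, adjusted p = 5.3e-04). In all of these the groups stood apart. The Fabp5 call was lost without the block (2.06, adjusted p = 0.11), in a fit of the 2 classes alone (2.49, adjusted p = 0.12), with classes set per cell (0.96, adjusted p = 0.25) and with the highest doublet scores removed (1.10, adjusted p = 0.26). Apoc1 passed as well (3.25, SE 0.52, adjusted p = 1.1e-04), but not with the 2 classes alone (3.27, adjusted p = 0.20), per cell (0.23, adjusted p = 0.87) or with those scores removed (1.42, adjusted p = 0.11).

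Apoe was the fifth higher gene, at 9513, 10819 and 40187 against 2565, 6183 and 5486, with no overlap and a log2 fold change of 2.09 (SE 0.54, adjusted p = 0.015). Without the late sample it was 1.30 (adjusted p = 0.059), per cell 1.01 (adjusted p = 0.34) and with the highest doublet scores removed 1.69 (adjusted p = 0.054). Those settings kept 161 and 267 cells in the late class, in place of 646. The lower gene was Trem2, at 399, 331 and 652 against 1030, 918 and 1000, apart in every sample (-1.07, SE 0.31, adjusted p = 0.017). It did not pass without the early (-0.95, adjusted p = 0.075) or the medium sample (-0.90, adjusted p = 0.29), nor at a clustering resolution of 2 (-0.59, adjusted p = 0.17). Tyrobp (0.31, SE 0.31), Abca1 (0.06, SE 0.35), Abcg1 (0.10, SE 0.42) and Soat1 (0.78, SE 0.29, adjusted p = 0.072) did not pass. Soat1 was called higher under DESeq2 (0.85, adjusted p = 0.026), at resolution 2 (0.95, adjusted p = 0.021) and with the 2 classes alone (0.84, adjusted p = 0.014).

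Astrocyte-like cells against EGFR-carrying cells, both of the CD45- sort, had 6 of the 10 genes higher and 0 lower, where 16.8% of genes were called, 8.41% higher and 8.39% lower. Apoe was at 7765, 7422 and 8129 CPM against 1147, 575 and 324 (3.64, SE 0.57, adjusted p = 3.2e-04). Soat1 was at 256, 132 and 262 against 17.5, 35.1 and 47.4 (2.66, SE 0.37, adjusted p = 4.1e-06). Both held under each sample left out. Abca1 passed (1.57, SE 0.40, adjusted p = 0.0069) but not without the late sample (1.01, adjusted p = 0.096), per cell (1.41, adjusted p = 0.24) or with the highest doublet scores removed (1.44, adjusted p = 0.090). The per-cell setting had no early EGFR-carrying sum. Fabp5 passed narrowly (1.27, SE 0.44, adjusted p = 0.049) and not without the early (0.92, adjusted p = 0.13), medium (1.32, adjusted p = 0.098) or late sample (1.26, adjusted p = 0.13), with 1 cell per barcode (1.26, adjusted p = 0.054) or under DESeq2 (1.29, adjusted p = 0.051), and was lost under most other alternatives too, per cell at 0.97 (adjusted p = 0.40). Apoc1 rested on 6 and 11 UMIs (3.85, SE 1.30, adjusted p = 0.044), and did not pass without the medium (4.25, adjusted p = 0.063) or late sample (3.75, adjusted p = 0.19), with 1 cell per barcode (3.81, adjusted p = 0.053), per cell (3.04, adjusted p = 0.31), with the highest doublet scores removed (3.87, adjusted p = 0.055) or with cells that held an EGFR UMI alone (3.67, adjusted p = 0.089). Trem2 rested on 7 against 3 UMIs, a ratio of 55.5 (12.7 to 332), and did not pass without the medium sample (4.39, adjusted p = 0.13) or per cell (2.47, adjusted p = 0.53). Tyrobp had 3 against 14 UMIs with the samples pooled, a ratio of 5.09 (0.938 to 18.2), and did not pass (adjusted p = 0.18). By sample Tyrobp was at 11.1, 6.31 and 0 against 17.5, 1.30 and 1.36 CPM, higher in astrocyte-like cells in only 1 of 3. It was called higher with the members kept in the clustering (4.37, adjusted p = 7.5e-05) and with the highest doublet scores removed (4.77, adjusted p = 5.3e-05).

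**Figure D3:**
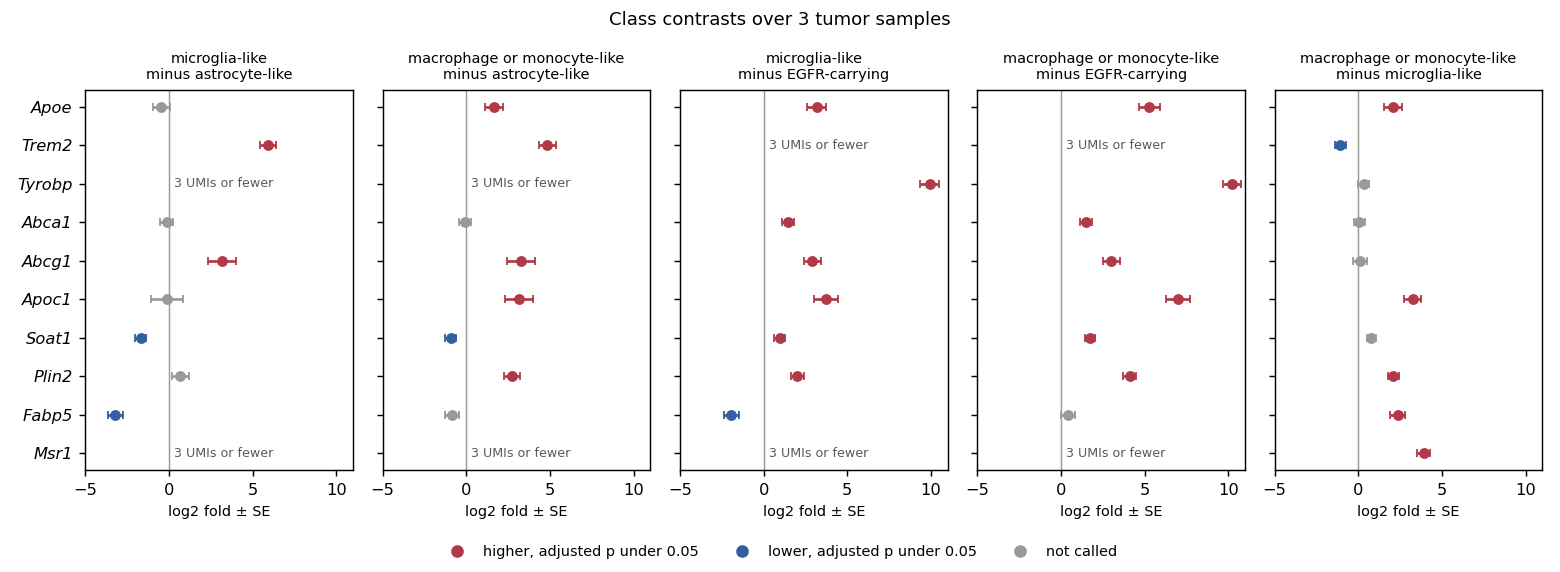
Log2 fold changes with their SE for the 10 genes in 5 class contrasts of the edgeR fit (red, higher; blue, lower, both at an adjusted p under 0.05; grey, not called), each over 3 tumor samples. Where a class held 3 UMIs or fewer the panel says so in place of a point. Trem2 lies to the right of 0 against astrocyte-like and to the left in macrophage or monocyte-like minus microglia-like cells, while Fabp5 lies to the left in both microglia-like panels.

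Other genes of the same pathways were read from 6 lists of 62 genes, by role. In the sort comparison 20.4% of all genes were higher and 25.7% lower, with a median log2 fold change of -0.04. Of 14 genes of TREM2 and TYROBP signalling, 12 were higher in CD45+ cells and 0 lower, with a median of 4.80. Several of the 14 are leukocyte receptors or adaptors, so the sort by CD45 itself favours this count, which is no test of the pathway. Trem3, a receptor of the same family, had 571 UMIs against 0 and was at least 185-fold higher. Trem1, another, had 390 against 2 UMIs, a ratio of 190 (52.2 to 1573), and Hcst was at 20.4 ± 2.73 against 0.320 ± 0.475 CPM (6.31, SE 0.71). Vav3 (0.68, adjusted p = 0.30) and Adam10 (0.51, adjusted p = 0.079), a protease that sheds TREM2, did not pass.

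Of 7 genes of apolipoproteins and lipid transfer, 4 were higher and 2 lower in CD45+ cells (median 1.67). Lpl, lipoprotein lipase, was at 343 ± 226 against 30.6 ± 4.24 CPM (3.59, SE 0.44, adjusted p = 8.4e-04). Apoc2, the activator of that enzyme and the far end of the Apoe block, had 391 against 3 UMIs, a ratio of 127 (43.1 to 618), and Apobr, a lipoprotein receptor, was higher by 3.55 (SE 0.40). Apod and Clu, the other glial lipid carriers of the list, were the 2 lower genes, at 48 ± 7.97 against 1412 ± 368 (-4.49, SE 0.35) and 10.3 ± 5.86 against 240 ± 128 (-4.13, SE 0.52). Of 12 lipoprotein and scavenger receptors, 11 were tested, 4 were higher and 3 lower (median 0.41). The scavengers Cd68 (5.22, SE 0.64), Cd36 (4.28, SE 0.67) and Olr1 (4.20, SE 0.44) were among the higher genes. The lower ones, Vldlr (-4.22), Lrp8 (-2.33) and Sort1 (-0.97), bind or sort APOE-bearing or other lipoprotein cargo. Sort1 did not pass without the medium sample (-0.76, adjusted p = 0.099), nor Cd36 with every gene kept (4.24, adjusted p = 0.073).

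Sterol efflux and its regulation by LXR gave 3 higher and 3 lower of 9 (median 0.33). Counts this near the shares of all genes, like those of the receptors, say nothing particular of the lists. Mylip (3.19, SE 0.31), an LXR target that degrades lipoprotein receptors, Lpcat3 (1.36, SE 0.28) and Rxra (1.25, SE 0.27) were higher, and Abca2 (-3.44, SE 0.25), Srebf1 (-1.48, SE 0.21) and Srebf2 (-1.08, SE 0.22) lower. The LXR genes themselves, Nr1h2 (0.33, adjusted p = 0.20) and Nr1h3 (0.24, adjusted p = 0.74), did not pass. Of 14 genes of sterol esters and lipid droplets, 7 were higher and 2 lower (median 0.54). Npc2, which hands cholesterol out of lysosomes, was at 955 ± 129 against 291 ± 33.6 CPM (2.08, SE 0.27). Soat2 (2.00, SE 0.32) and Hilpda (1.75, SE 0.35), which restrains lipolysis, were higher, and the droplet coats Plin4 (-4.96, SE 0.64) and Plin3 (-1.42, SE 0.36) lower. Of 6 genes of fatty acid binding, Acsl5 was higher (2.17, SE 0.25) and Acsl3 (-3.56, SE 0.23) and Fabp7 (-2.84, SE 0.30), a glial relative of Fabp5, were lower (median -0.32). Without the block Fabp7 did not pass (-2.56, adjusted p = 0.099), nor did Plin3 without the medium sample (-1.45, adjusted p = 0.065).

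The lists divided differently between macrophage or monocyte-like and microglia-like cells, where 8.06% of all genes were higher and 6.56% lower, with a median of -0.08. Of 10 tested genes of TREM2 and TYROBP signalling none was called by edgeR in either direction (median -0.11). Of the 7 apolipoprotein genes 3 were higher, all beside or acting with Apoe: Apoc2 (4.30, SE 0.53, adjusted p = 2.9e-06), Apoc4 (2.52, SE 0.52, adjusted p = 9.3e-04) and Lpl (2.50, SE 0.67, adjusted p = 0.030). Apoc4 did not pass without the late sample (1.76, adjusted p = 0.14). Lpl did not pass without the early (2.29, adjusted p = 0.21) or the late sample (2.08, adjusted p = 0.26), without the block (adjusted p = 0.074), with classes set per cell (0.08, adjusted p = 0.95) or with the highest doublet scores removed (0.75, adjusted p = 0.64). Of 11 tested receptors 4 were higher, among them Olr1 (4.12, SE 0.59), Cd36 (3.50, SE 0.96) and Sorl1 (2.34, SE 0.39), and 2 lower, Sort1 (-1.88, SE 0.28) and Scarb2 (-0.85, SE 0.28). Of 12 tested genes of sterol esters and droplets 4 were higher, with G0s2 (3.10, SE 0.58) and Hilpda (1.59, SE 0.39), inhibitors of lipolysis, and Nceh1 (1.16, SE 0.39), a cholesterol ester hydrolase, leading. Mgll, a monoacylglycerol lipase, was the 1 lower gene (-1.88, SE 0.33). Of 7 tested genes of sterol efflux, Srebf2 was higher (1.22, SE 0.33) and Mylip (-1.67, SE 0.45) and Lpcat3 (-1.49, SE 0.31) were lower, and of 4 tested genes of fatty acid binding none was called. Without the early sample the call was lost for Cd36 (2.61, adjusted p = 0.41), Nceh1 (1.07, adjusted p = 0.11), Scarb2 (-0.73, adjusted p = 0.19), Srebf2 (1.07, adjusted p = 0.061) and Mylip (-1.40, adjusted p = 0.14). Without the medium sample it was lost for Scarb2 (-0.72, adjusted p = 0.37) and Srebf2 (1.17, adjusted p = 0.11), and without the late sample for Cd36 (3.39, adjusted p = 0.073), Nceh1 (0.69, adjusted p = 0.49) and Hilpda (1.43, adjusted p = 0.12). Other settings ended calls too. With classes set per cell G0s2 (2.30, adjusted p = 0.15), Apoc4 (1.0, adjusted p = 0.28), Cd36 (1.75, adjusted p = 0.29) and Nceh1 (0.57, adjusted p = 0.42) did not pass, and under DESeq2 Cd36 (adjusted p = 0.069), Nceh1 (adjusted p = 0.091) and Mylip (adjusted p = 0.077) did not. At resolution 2 Srebf2 (0.62, adjusted p = 0.22) and Scarb2 (-0.54, adjusted p = 0.18) did not pass, and without the block Nceh1 (adjusted p = 0.051) and Scarb2 (adjusted p = 0.055) did not. Cd36, Nceh1 and Scarb2 were lost under further settings as well.

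Stages are described without a test, as each is 1 tumor sample, and intervals are 95% counting intervals only. In microglia-like cells of the CD45+ sort Apoe was 1.10 log2 units (1.06 to 1.13) higher in the late than in the early sample. This held in runs 2 and 3 (1.01 and 1.19) and within each of 5 microglia-like clusters with enough cells (0.65 to 1.66). In the medium sample the same ratio was 1.27 (1.24 to 1.30), but within clusters it was 0.11, -0.18, -0.85 and -0.25, and 2.93 in a cluster led by Cnbd2 alone. Over the same cells Trem2 differed by -0.04 (-0.11 to 0.03) late and -0.17 (-0.24 to -0.09) medium, and Tyrobp by -0.16 and 0.33. The 3 Trem2 levels lay within 918 to 1030, and those of Apoe spanned 2565 to 6183. The myeloid cells of the CD45- sorts, taken over all their classes, had Apoe at 1949 early, 6742 medium and 1886 CPM late. There the late value was not above the early one, and it came from 128 UMIs in 32 cells. In T cell-like cells, not known for Apoe, its ratios were larger, 2.31 late and 2.41 medium, and those of Trem2 were 0.51 and 0.37, so that a gap between the 2 genes was seen there too.

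Fabp5 had the largest stage ratios among the better counted genes of microglia-like cells, 1.94 (1.58 to 2.30) late and 3.18 (2.88 to 3.49) medium over early. The Fabp5 level was 17 CPM early, 154 medium and 65.2 late. Single cells held many of its UMIs, 32 of 65 in the medium run 3 library and 30 of 77 in the late run 2 library. As means over cells the ratios were 1.68 late and 2.45 medium. With a library left out they were 1.46 to 2.44 late and 2.87 to 3.32 medium. Apoc1 had 1.75 and 3.66, from 23 early UMIs, and Plin2 0.49 (0.11 to 0.85) and 1.71 (1.42 to 2.00). Abca1 differed by -0.19 and 0.06 and Soat1 by 0.52 and 0.28. The Cnbd2-led cluster held much of the medium pattern. It had 163, 204 and 53 cells, with Apoe at 1973, 15050 and 5095 CPM, Fabp5 at 17.6, 442 and 24.8, Plin2 at 14.7, 247 and 16.5 and Abca1 at 159, 432 and 240 in the early, medium and late samples. In each of these the medium value stood alone, with the early and late values below it, while Trem2 was lowest in the medium sample, at 1106, 750 and 844.

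In macrophage or monocyte-like cells Apoe was 2.08 log2 units (2.04 to 2.12) higher late than early, and 0.19 (0.14 to 0.23) medium over early. Abcg1 was 2.72 (1.95 to 3.61), Abca1 1.57 (1.24 to 1.92), Fabp5 1.41 (1.10 to 1.73), Msr1 1.18 (0.49 to 1.95), Plin2 0.95 (0.61 to 1.31), Trem2 0.71 (0.49 to 0.93) and Soat1 0.63 (0.16 to 1.13) higher late, and Tyrobp 0.12 (0.01 to 0.23). Apoc1 alone stood level, at -0.09 (-0.51 to 0.36). That value turned on 1 library: of 58 early Apoc1 UMIs 50 came from the run 2 library, 38 of them in 1 cell, and without it the early level was 24 in place of 113 CPM and the ratio 2.15. Without the same library the early Fabp5 level was 117 in place of 185 CPM and its late over early ratio 2.07.

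The class was made of 2 clusters whose shares differed by stage. A cluster led by Rnase2a, Spp1 and Arg1 held 62 of 191 cells early, 111 of 493 medium and 571 of 646 late, and a cluster led by Ccr2 held the others. The Arg1-led cluster had 3 of the 9 macrophage or monocyte markers, the fewest that allowed a name. The Ccr2-led cluster had 8 of them but also 3 dendritic cell markers, with Ccr7, Ccl17 and Xcr1, genes known from dendritic cells, among its leading genes. The Arg1-led cluster had Apoe at 23599, 25724 and 44256 CPM, and the Ccr2-led cluster at 2812, 6415 and 4301. These do not overlap, and within the clusters the late over early ratio of Apoe was 0.91 and 0.61. Trem2 was at 1021, 886 and 710 in the Arg1-led and 104, 167 and 141 in the Ccr2-led cluster, beside 1030, 918 and 1000 in microglia-like cells. The early Arg1-led value lay among those of microglia-like cells, and the medium and late values below them. Abca1 was at 423, 423 and 501 against 25.9, 64.1 and 60.5, and Fabp5 at 490, 733 and 535 against 40.3, 131 and 95.8. Plin2 was less divided, at 109, 262 and 318 against 178, 167 and 156.

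Leaving out the Arg1-led cluster, a choice made after seeing the data, changed the class comparisons. Macrophage or monocyte-like minus microglia-like cells then had 2 members higher and 2 lower. Of 8667 genes tested 1109 were higher and 1020 lower, in place of 861 and 701 of 10680. Apoe there was at -0.07 (adjusted p = 0.92) and Abca1 at -2.20 (adjusted p = 1.5e-05). Fabp5 there was at 0.43 (adjusted p = 0.48). Against astrocyte-like cells Apoe and Apoc1 turned to -0.59 each (adjusted p = 0.21 and 0.69), and Abca1 was at -2.44 (adjusted p = 5.1e-06) and Fabp5 at -2.90 (adjusted p = 3.8e-06). Against EGFR-carrying cells Fabp5 was at -1.59 (adjusted p = 0.0025). Adding the Cxcl9-led cluster to the class, also chosen after seeing the data, left Trem2 against microglia-like cells at -0.70 (adjusted p = 0.11).

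**Figure D4:**
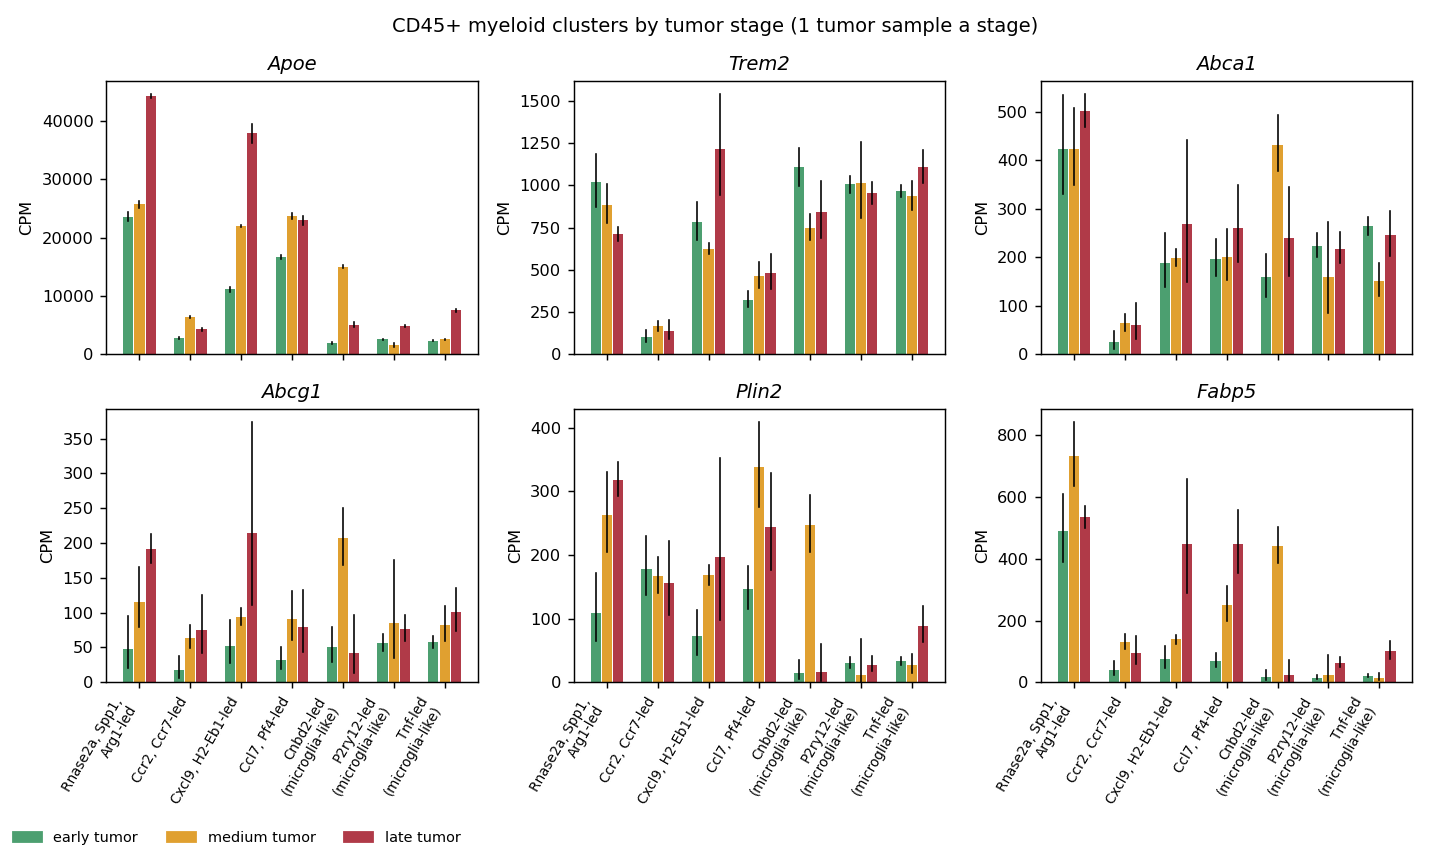
Levels in CPM of 6 genes in 7 CD45+ clusters (bars) of the early, medium and late tumor samples (colours), with exact Poisson 95% intervals. The Arg1-led cluster has the tallest Apoe and Abca1 bars but Trem2 at 710 to 1021, and the Cnbd2-led cluster stands out in the medium sample for Apoe, Abca1, Abcg1, Plin2 and Fabp5.

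Border macrophage-like cells had Apoe at 16751, 23723 and 22931 CPM in early, medium and late samples, Fabp5 at 69.2, 250 and 449 and Msr1 at 125, 153 and 114. Apoe and Msr1 were thus high from the early sample on. In the Cxcl9-led cluster Apoe was at 11152, 21912 and 37865 and Fabp5 at 76.1, 139 and 447, with only 21 cells late. Astrocyte-like cells had Abca1 at 312, 227 and 524 and showed no order over stages in Apoe. In EGFR-carrying cells Apoe (1147, 575 and 324) and Abca1 (193, 120 and 74.8) were lowest late, and Soat1 (17.5, 35.1 and 47.4) and Plin2 (8.75, 16.5 and 22.4) highest late, with the early value from 44 cells. In oligodendrocyte-like cells, the largest CD45- class, Apoe was at 1097, 1045 and 944 and Fabp5 at 795, 633 and 733.

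Free RNA in droplets gives UMIs to cells that do not express a gene, so shares of cells with a UMI were read beside T cell-like cells after thinning each cell to 1000 UMIs. Apoe was then seen in 66.1% of microglia-like (75.1% unthinned), 76.8% of macrophage or monocyte-like (81.0%), 98.2% of border macrophage-like (99.1%) and 97.3% of astrocyte-like cells (98.2%). In T cell-like cells it was seen in 29.8% (36.7%) and in EGFR-carrying cells in 22.2% (41.3%), and median depths before thinning were 1886 and 5042 UMIs, beside 1903 in microglia-like, 2400 in macrophage or monocyte-like and 1701 in astrocyte-like cells. The share of EGFR-carrying cells with Apoe was below that of T cell-like cells. The 2 classes come from different sorts, and Apoe was the higher in the CD45+ sums. The part of free RNA in either share was not tested. Trem2 was seen in 58.9% of microglia-like, 32.3% of macrophage or monocyte-like and 13.7% of T cell-like cells, in 3 of 150 astrocyte-like cells and in 0 of 1419 EGFR-carrying cells.

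Fabp5 was seen in 38.0% of thinned astrocyte-like, 37.8% of oligodendrocyte-like, 25.5% of EGFR-carrying and 17.6% of macrophage or monocyte-like cells, but in 2.13% of microglia-like cells, below the 6.23% of T cell-like cells. Plin2 was seen in 16.3% of macrophage or monocyte-like, 3.11% of microglia-like and 2.20% of T cell-like cells. Soat1 was seen in 16.7% of astrocyte-like, 8.24% of macrophage or monocyte-like, 4.30% of microglia-like and 3.30% of T cell-like cells. These shares are over all stages together, and the early sample gave 3909 of 5732 microglia-like cells. For these 3 genes the microglia-like share so taken was near or under that of T cell-like cells, which limits what their stage ratios in microglia-like cells can show.

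Apoe UMIs per Tyrobp UMI were 2.64 (2.59 to 2.69) in microglia-like, 15.9 (15.5 to 16.3) in macrophage or monocyte-like and 14.5 (13.7 to 15.3) in border macrophage-like cells. They were 5.96 (5.57 to 6.37) in T cell-like, 0.926 (0.861 to 0.997) in neutrophil-like, and 970 (332 to 4708) in astrocyte-like cells. The T cell-like ratio was 2.27 early, 6.54 medium and 11.3 late, beside 1.93, 3.69 and 4.61 in microglia-like and 5.95, 6.97 and 23.2 in macrophage or monocyte-like cells. The T cell-like cluster was led by Xcl1, Trbc2, Trac and Il2rb, with Gzma and Nkg7, genes that NK cells also use, and NK cells are known to express Tyrobp. It also had 5 of the macrophage or monocyte markers. Apoe in T cell-like cells was at 866, 4606 and 4283 CPM, and the part of free RNA in these and in the microglia-like values was not tested.

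**Figure D5:**
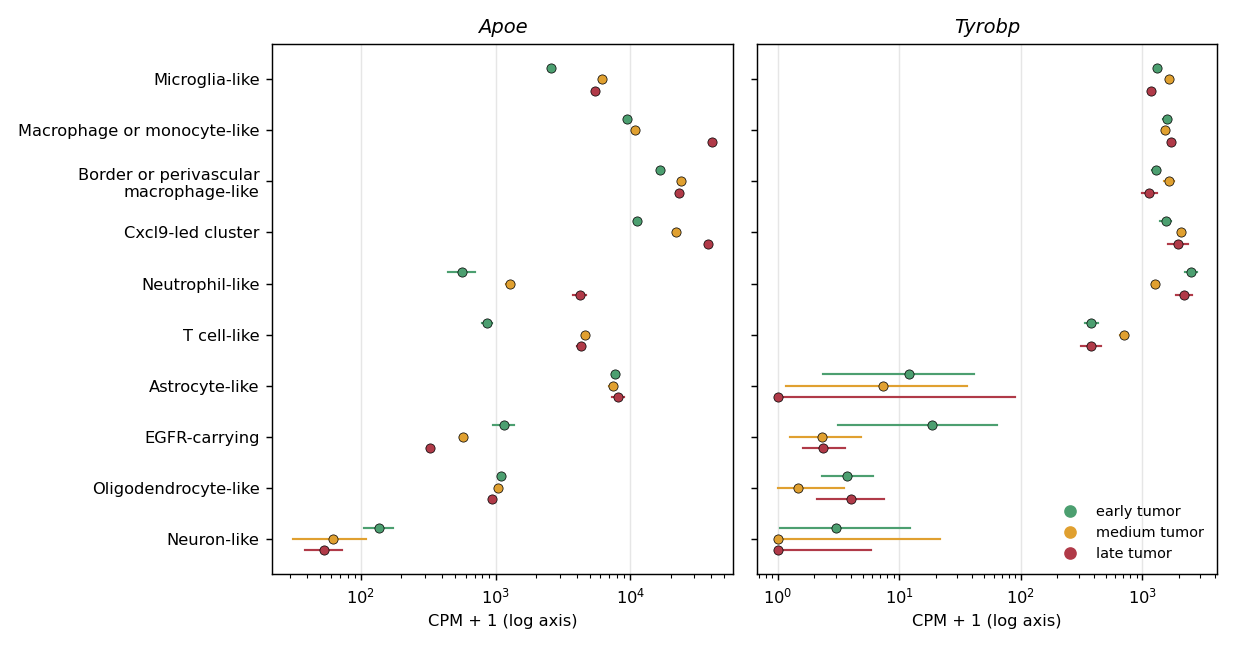
Levels of Apoe (left) and Tyrobp (right) as CPM + 1 on log axes in 10 cell classes of the early, medium and late tumor samples (colours), with exact Poisson 95% intervals as lines. In T cell-like and neutrophil-like cells the Apoe points are spread by stage while those of Tyrobp lie closer together, and below T cell-like cells the Tyrobp points fall to 17.5 CPM or less while Apoe in astrocyte-like cells stays between 7422 and 8129.

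Likeness of pattern was measured as Pearson's r of log2(CPM + 1) over 48 sums of class and stage, which share libraries and depth. Among the members, Trem2 and Tyrobp were most alike (r = 0.94), followed by Apoe and Plin2 (0.79), Apoe and Apoc1 (0.78), Tyrobp and Msr1 (0.73), Trem2 and Msr1 (0.72) and Apoe and Abca1 (0.70). Apoe and Trem2 had r = 0.67, and Fabp5 had at most 0.40 with any other member. Outside the set, Apoe was most like Npc2 (0.84), Dcxr (0.79) and Ctsb (0.78), Trem2 like Il1a, Bcl2a1d and Ly86 (0.97 each) and Tyrobp like Fcgr3, Fcer1g and Itgb2 (0.97 each). Msr1 was most like Apoc2 (0.89), Gm44805 (0.87) and Mrc1 (0.87), and Plin2 like Ftl1-ps1 (0.81), Ftl1 (0.80) and Sat1 (0.79), where Ftl1 and its pseudogene may share reads. Weaker likeness was found for Abcg1 (Rassf4 0.74, Neu1 0.72, Slc9a9 0.69), Abca1 (Cd63 0.72, Axl 0.72, Asah1 0.71), Apoc1 (Zmynd15 0.72, Apoc2 0.72, AC166110.3 0.71), Fabp5 (Fam234b 0.67, Tsc22d4 0.64, Olfr731 0.63) and Soat1 (Pla2g7 0.61, Sh3pxd2b 0.60, Cxcl14 0.59).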

How the data were processed

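Tumors of 3 stages were measured as 1 sample each, with CD45+ and CD45- sorts and 4 libraries per sort in 3 sequencing runs. The authors aligned inDrop reads with RapMap in bcbio-nextgen to the GRCm38 transcriptome with transgenes added and deposited raw UMI counts for each gene in each cell, and an annotation of the libraries. The submitters' processing notes name the build mm10. Removal of ambient RNA and of doublets is described, but not whether it came before deposit. A further allele of the mice is not reported here. The labels name the runs, and the deposited annotation gives stage and sort.

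From the deposited counts, cells with at least 500 UMIs, 500 genes and at most 20% mitochondrial UMIs were kept (17894 of 20811), and 139 called doublets were removed (0.782% of 17786 cells scored). Cells were clustered with scanpy 1.11.5 and leidenalg 0.10.2 on 2000 variable genes, without the members and listed genes other than class markers (40 components, 20 neighbours, resolution 1). A cluster was named where 3 fixed markers led it, and 8 of 32 stayed unnamed. Raw counts were summed per class or sort and tumor sample (at least 20 cells) and fitted with edgeR 4.0.16 (quasi-likelihood, TMM, tumor sample as block, Benjamini-Hochberg, threshold 0.05). DESeq2 1.42.0 was an alternative, and others were sample omission, filters, doublet handling, resolution, per-cell classes, run and 1 cell per barcode. Both sorts and all classes of a stage come from 1 tumor sample: the deviations of its sorts correlated at 0.28 to 0.38, and those of its classes over 30 pairs at -0.02 to 0.26. On simulated data with 100 genes changed at each size, 22 at 2-fold and 88 at 4-fold were recovered in the sort comparison (18428 genes), and 22 and 86 in macrophage or monocyte-like against microglia-like cells (10680 genes). The simulation gave the other genes 1 mean in all groups and held no effect of the tumor sample. In the real sort comparison 46.2% of genes were called, so these recoveries do not measure the power there. Sums held 5366987 to 10814467 UMIs per sort, and intervals (95%, exact Poisson) cover counting error only.

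The members and gene lists were chosen with earlier results of these data known. All 10 members are named. Of each list, up to 3 of the largest called changes in each direction are named, with genes that went against most of their list in the sort comparison, and for each member the 3 genes with the most similar levels (at least 50 CPM in a sum).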

Additional observations from a re-analysis of the deposited data

How the results depend on the processing

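Of 69 member results, 52 passed the test, 35 of them under each alternative in which they were tested (a fit of only 2 classes left out some low members). Another 17 missed the threshold under at least 1. A change of sign was seen in 5 of the 52, all without the Arg1-led cluster, an alternative chosen after seeing the data as were the Cxcl9-led cluster, the EGFR UMI and the barcode alternatives. Where no cause is given by the alternative itself (fewer cells, samples or genes), the cause was not tested. Log2 fold changes of reversed sign are given below, of results that had not passed except in the setting without the Arg1-led cluster.

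Numbers of genes tested differed between these fits. Against microglia-like cells, macrophage or monocyte-like cells had 6 members called, 3 with classes set per cell and 3 with the highest doublet scores removed. Of 10680 genes 1562 were called, with only the 2 classes fitted 2653 of 11320. With a sample left out it was 820 of 10942 to 1101 of 14009. Per cell 598 genes were higher and 657 lower of 10604, and with those scores removed 935 and 852 of 10049. Apoe in this comparison had an adjusted p of 0.34 with classes per cell and 0.054 with the highest doublet scores removed, Apoc1 0.87 and 0.11, and Fabp5 0.25 and 0.26. Against astrocyte-like cells 8 members were called, 5 per cell. Of 10680 genes 4402 were called, with 2 classes 2754 of 5920, and per cell 2177 were higher and 2092 lower of 10604. For astrocyte-like against EGFR-carrying cells 6 members were called, 2 per cell and 3 to 5 with a sample left out. With 2 classes only 4 members were tested, and all 4 were higher. Of 10680 genes 1794 were called, with 2 classes 837 of 3757 and per cell 546 of 10604. With a sample left out it was 734 of 10942 to 1862 of 14009.

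Microglia-like minus astrocyte-like values turned as follows. Apoe was at 0.71 per cell. Abca1 was at 0.65 per cell and 0.32 with every gene. Apoc1 was at 2.36 per cell, 0.34 with every gene, 0.02 with 2 classes and 0.09 with the highest doublet scores removed. With a sample left out Apoe ran from -0.67 to 0.11, Abca1 from -0.39 to 0.29, Plin2 from -0.18 to 1.62 and Apoc1 from -1.25 to 0.62.

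For macrophage or monocyte-like cells, Abca1 minus astrocyte-like cells was at 0.39 with every gene, 0.29 at resolution 2, 0.06 with the Cxcl9-led cluster and -0.41 to 0.36 with a sample left out. Fabp5 minus EGFR-carrying cells was at -0.07 without TMM, -0.04 per cell and -0.69 with the highest doublet scores removed. Minus microglia-like cells, Abca1 was at -0.03 without TMM, -0.01 with 2 classes, -0.79 per cell, -0.78 with the highest doublet scores removed and -0.70 to 0.44 with a sample left out, and Abcg1 at -0.24 per cell, -0.16 with those scores removed and -0.78 to 0.51 with a sample left out. Astrocyte-like minus EGFR-carrying Abcg1 ran from -7.75 to 1.10 with a sample left out. Without the Arg1-led cluster, Apoe and Apoc1 minus astrocyte-like cells were both at -0.59, and Abca1 and Fabp5 minus EGFR-carrying cells at -0.80 and -1.59. Minus microglia-like cells Apoe was then at -0.07, Abca1 at -2.20, Lpl at -0.66, Abcg1 at -0.81, Nceh1 at -0.12, Tyrobp at -0.20 and Apoc1 at -0.39.

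Without the block for the tumor sample, Apoc1 in microglia-like minus astrocyte-like cells turned to 0.11, Abcg1 passed between the sorts (0.94, adjusted p = 0.040), and Fabp5 did not pass in microglia-like minus EGFR-carrying (-1.76, adjusted p = 0.081), macrophage or monocyte-like minus microglia-like (2.06, adjusted p = 0.11) or astrocyte-like minus EGFR-carrying cells (1.10, adjusted p = 0.38), nor did Apoc1 in the last (3.74, adjusted p = 0.11). Of 310 alternatives to 40 stage values, 176 lay within the counting interval and 48 had the other sign.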

Other observations

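The same 6 lists were read in microglia-like minus astrocyte-like cells, where 18.3% of all genes were higher and 20.2% lower, with a median log2 fold change of 0.05. Of 10 tested genes of TREM2 and TYROBP signalling, 9 were higher in microglia-like cells by the edgeR test and 0 lower (median 6.66, and 3.24 with genes at 0 UMIs in astrocyte-like cells set to their bound), among them the phosphatase genes Inpp5d and Ptpn6 with 1 UMI each in astrocyte-like cells. Several of these are leukocyte genes, so the count is no test of the pathway. Of 4 tested genes of fatty acid binding, Fabp7 was at 3.73 ± 4.96 against 1246 ± 606 CPM (-8.28, SE 0.59) and Acsl3, an acyl-CoA synthetase, at 4.80 ± 0.817 against 1241 ± 62.6 (-7.81, SE 0.47). Acsl5, another synthetase, had 876 UMIs against 0. Clu (-10.78, SE 0.59) and Apod (-6.12, SE 0.48) were the 2 lower genes of 7 apolipoproteins and lipid transfer genes, of which 2 were higher. Srebf1 (-3.61, SE 0.34), a lipid synthesis regulator, and Mgll (-2.29, SE 0.31) were lower, and Mylip (3.00, SE 0.65) and Npc2 (2.07, SE 0.32) higher. Sterol efflux had 2 higher and 3 lower of 7, sterol esters and droplets 3 and 3 of 12, and receptors 1 and 3 of 11, with Sorl1 (-2.78, SE 0.44) among the lower.

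In astrocyte-like minus EGFR-carrying cells, where 8.41% of all genes were higher and 8.39% lower, the lists had 2 higher and 0 lower of 7 apolipoprotein genes, 0 and 1 of 10 signalling genes, 2 and 0 of 7 sterol efflux genes, 4 and 0 of 12 genes of sterol esters and droplets, 1 and 1 of 4 of fatty acid binding and 1 and 2 of 11 receptors, beside an all-gene median of -0.14. Clu was at 2335 ± 660 against 56.3 ± 36.7 CPM (5.85, SE 0.47), Acsl3 at 1241 ± 62.6 against 109 ± 87.8 (3.96, SE 0.39) and Sorl1 at 218 ± 77.3 against 14.6 ± 17.7 (5.37, SE 0.56). Vldlr, an APOE receptor, was lower, at 25.4 ± 20.9 against 104 ± 31.7 (-2.35, SE 0.63).

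Among classes outside the comparisons, fibroblast-like cells had Apoe at 1441 ± 555, Soat1 at 91.6 ± 39.7 and Abca1 at 189 ± 129 CPM (SD, n = 3). Choroid plexus epithelium-like cells had Apoe at 1643 ± 372 and Fabp5 at 10.2 ± 8.29, the lowest Fabp5 mean of the 17 classes. Endothelial-like cells had Plin2 at 52.8 ± 15.1, near the 56.6 ± 36.4 of microglia-like cells. Ependymal-like cells were enough only in the early sample, with Apoe at 3223.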
